A study of Mus musculus with 4 samples.

Results

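The 10 genes described here encode the AP-1 and EGR immediate early transcription factors Fos, Fosb, Fosl2, Jun, Junb, Jund, Egr1, Egr2, Egr3 and Atf3. They were taken by symbol from the 31053 features of the deposited count matrices, and each had at least 1 UMI (unique molecular identifier, 1 counted mRNA molecule) in each of the 4 libraries. The libraries were made from the stromal vascular fraction, the cells left once adipocytes are removed, of inguinal white adipose tissue. One cell pool came from 8 iAdFASNKO mice and the other from 7 control mice of strain C57BL/6. Magnetic sorting split each into lineage marker-positive cells (Lin+) and the remaining cells (Lin-). The labels give neither the age of the mice nor the driver of the knockout, and do not spell the genotype out. Fasn, the gene of fatty acid synthase in the name, is a gene of adipocytes above all. It was at 21.7 CPM (UMIs per 1000000 UMIs) in iAdFASNKO Lin+ cells, against 36.3 CPM in control Lin+ cells, and at 24.9 CPM in iAdFASNKO Lin- cells, against 38.03 CPM in control Lin- cells. The adipocyte gene Adipoq had 0 UMIs in both Lin+ libraries, 14 UMIs in the iAdFASNKO Lin- library and 1 UMI in the control Lin- library, so Fasn in these cells does not check a deletion in adipocytes.

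AP-1 is a dimer of basic leucine zipper proteins. Proteins of the FOS group pair with JUN proteins, JUN proteins can also pair with one another or with ATF3, and the dimers bind short palindromic DNA sites in promoters and enhancers. EGR proteins are zinc finger factors that bind GC-rich sites. Most of these genes are silent or low at rest, and their transcription starts within minutes of a growth factor, cytokine or stress signal, through CREB/ATF sites and serum response elements that are occupied beforehand. Enzymatic digestion of tissue is a known inducer of them, and the fat pads here were digested at 37 °C for 45 minutes in both genotypes.

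The promoter stretches of 4 members that carry a CREB/ATF-type site close to the start of transcription are shown because these sites are a textbook route by which the genes are switched on together. They are the 120 bases before the RefSeq start site (build GRCm38.p6), written on the strand of the gene. Capitals mark TGACG or TGACNTCA, and TATAAA.
Fos (plus strand, chr12:85473770-85473889): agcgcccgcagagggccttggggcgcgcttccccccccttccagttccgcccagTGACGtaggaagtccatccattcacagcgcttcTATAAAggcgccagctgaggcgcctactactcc
Fosb (minus strand, chr7:19310046-19310165): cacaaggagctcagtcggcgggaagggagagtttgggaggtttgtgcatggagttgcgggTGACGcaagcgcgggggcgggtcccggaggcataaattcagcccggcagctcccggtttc
Jun (minus strand, chr4:95052223-95052342): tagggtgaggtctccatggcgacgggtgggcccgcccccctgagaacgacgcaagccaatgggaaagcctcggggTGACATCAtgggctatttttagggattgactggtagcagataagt
Junb (minus strand, chr8:84978749-84978868): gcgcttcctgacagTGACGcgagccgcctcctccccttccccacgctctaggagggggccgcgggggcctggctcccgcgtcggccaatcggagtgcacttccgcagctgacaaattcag

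The RefSeq table held windows of 300 bases, from 250 before to 50 after the start, for 8 of the 10 members. TGACG or TGACNTCA stood on either strand in the windows of 6 of these 8, against 26.9% of all 32851 promoter windows in the table. The match began 66 bases before the start in Fos, 60 in Fosb, 45 in Jun and 106 in Junb. Fos had a second TGACG beginning 129 bases before the start, Atf3 (chromosome 1) had one 7 bases before it, and Egr2 (chromosome 10), with 5 annotated starts, was the sixth. The AP-1 site TGANTCA itself was in none of the 8, against 7.81% of all windows, and the CArG box of the serum response element was in windows of Egr2 alone, against 1.63% of all windows. Sites farther than 250 bases before the start were not searched, and Egr1 and Egr3 had no window. A member without a match here may therefore still carry the element elsewhere. These matches describe the letters of the windows and show no binding.

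The libraries held 6133 (iAdFASNKO Lin+), 3686 (control Lin+), 4856 (iAdFASNKO Lin-) and 3661 (control Lin-) cell barcodes, where the labels estimate about 6000 cells each. Barcodes were kept as cells from 300 genes and 500 UMIs upward, with mitochondrial UMIs no higher than 10% and no doublet call, which left 4425, 2888, 4314 and 3074 cells in the same order. Their median depths were 3302, 5359, 4150.5 and 9116 UMIs, so each iAdFASNKO library was shallower per cell than its control. Pairs of libraries shared 109 to 170 barcode sequences, and leaving these cells out had its largest effect on the endothelial-like comparison, where the value is given. Cells were put into 17 classes by markers alone, and 8.04% to 15.6% of the cells of a library met no class. Progenitor-like cells, described below, were the largest class of both Lin+ libraries, with 1427 iAdFASNKO and 1610 control cells. The Lin+ libraries were therefore not immune cells alone. With 1 library per genotype and fraction there is no replicate, so differences between libraries carry no test. Each value has a 95% interval that covers counting error only.

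The summed level of the 10 genes was highest in mast-cell-like cells, the granulated tissue cells of allergic responses, in all 3 libraries with at least 15 of them. It was 40795 CPM in 22 iAdFASNKO Lin+ cells, 36365 CPM in 16 control Lin+ cells and 25852 CPM in 19 iAdFASNKO Lin- cells. Progenitor-like cells, the Pdgfra-expressing fibroblasts that give rise to adipocytes, were at 5361 CPM in iAdFASNKO Lin+, 8393 CPM in control Lin+, 12015 CPM in iAdFASNKO Lin- and 17629 CPM in control Lin-. Schwann-like cells, the glia of peripheral nerves, lay between 7913 and 11590.5 CPM over the 4 libraries, and smooth muscle or pericyte-like cells, the contractile cells of vessel walls, between 8126 and 10545 CPM. Neutrophil-like cells had 7393 CPM in iAdFASNKO Lin+ and 7268 CPM in control Lin+, with overlapping intervals. ILC2-like cells, the innate lymphoid cells that make type 2 cytokines, had 6987 CPM in 35 iAdFASNKO and 11312 CPM in 49 control Lin- cells, too few for a comparison of the genotypes here. Lymphocytes stood at the low end. T-cell-like cells had 1479 CPM in iAdFASNKO Lin+ and 2822 CPM in control Lin+, and B-cell-like cells 1642 CPM in iAdFASNKO Lin+ and 2228 CPM in control Lin+. Lymphatic endothelial-like cells had 1724 CPM in iAdFASNKO Lin- and 2420.4 CPM in control Lin-, below the other endothelial-like cells at 5256 CPM in iAdFASNKO Lin- and 5104 CPM in control Lin-. One further value, 6849 CPM in 19 B-cell-like cells of the iAdFASNKO Lin- library, is set aside because 1 cell held 80.1% of those UMIs.

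**Figure D1:**
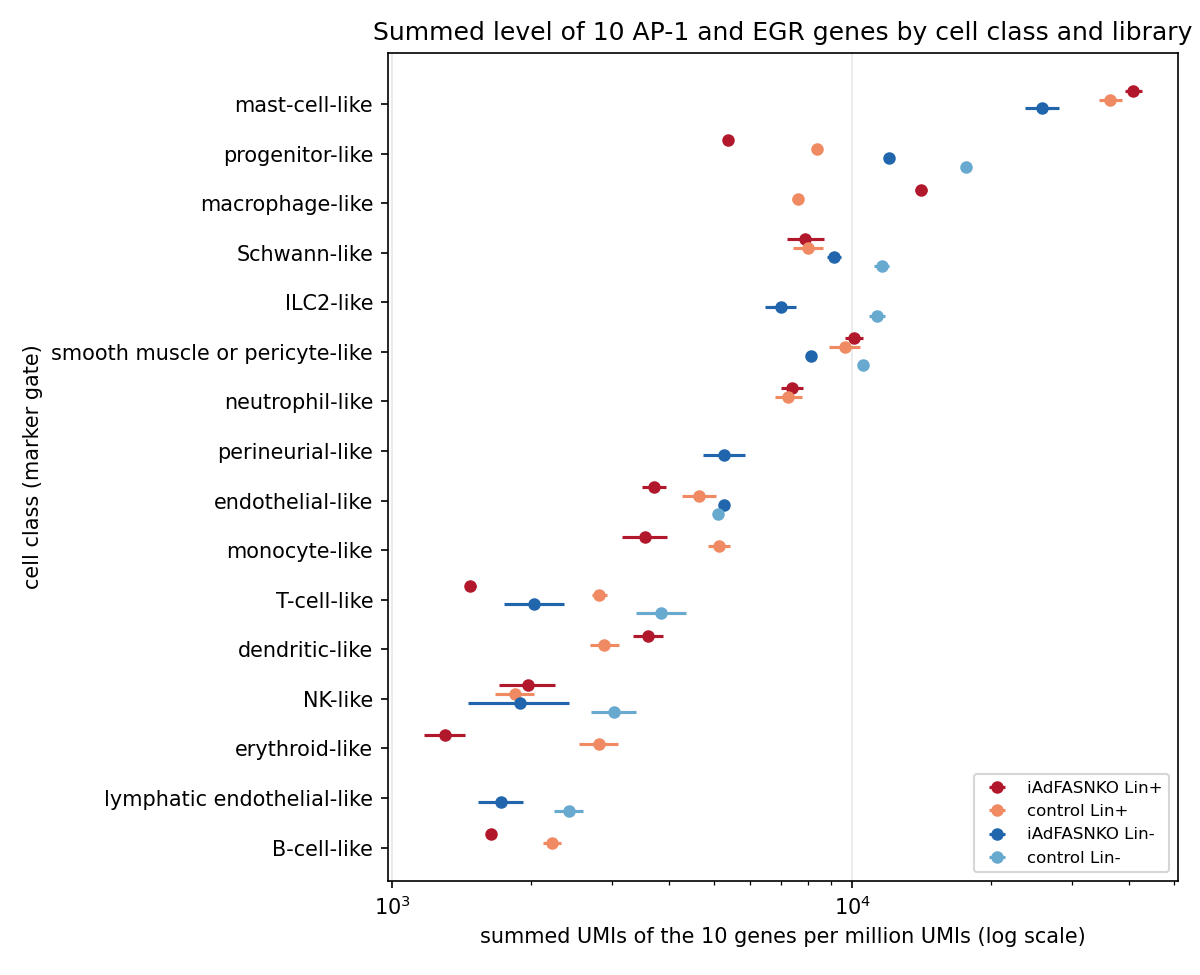
Summed UMIs of the 10 genes per 1000000 UMIs (log axis) for each class with at least 15 cells in a library; points are libraries, lines are 95% counting intervals, and the 19 B-cell-like Lin- cells named in the text are left out. Mast-cell-like cells sit to the right of every other class, between 25852 and 40795 CPM, and the 4 progenitor-like libraries spread from 5361 to 17629 CPM.

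Free RNA from broken cells gives every droplet some counts. Erythroid-like cells, in which haemoglobin made up at least 25% of the UMIs, are a rough reference for it in the Lin+ libraries. They do not give its size. In control Lin+ they ranked 5 of 13 classes for Egr1, at 676 CPM, against 17.6 CPM in NK-like and 31.3 CPM in dendritic-like cells. Of the 17 control erythroid-like cells, 1 held 22.1% of their UMIs of the 10 genes. Thinned to 1000 UMIs per cell, Fos had a UMI in 10.3% of 39 iAdFASNKO and 11.8% of 17 control erythroid-like cells (median depths 6360 and 7804 UMIs). The same share was 5.00% in iAdFASNKO and 9.57% in control B-cell-like cells (median depths 2480.0 and 2285.5 UMIs), so this reference does not tell Fos in B cells from free RNA. Egr1 in T-cell-like cells, at 2.87% in iAdFASNKO and 9.55% in control, was likewise below the erythroid-like shares of 12.8% and 29.4%. Junb in T-cell-like cells was above them in this share, at 33.1% in iAdFASNKO and 47.7% in control, against 15.4% and 11.8% of erythroid-like cells. Haemoglobin made up 69.2% of erythroid-like UMIs in iAdFASNKO and 42.8% in control. With haemoglobin left out of the total, the 10 genes summed to 4226 and 4915 CPM in erythroid-like cells of iAdFASNKO and control. T-cell-like cells then had 1486 and 2831 CPM. Over all UMIs, Junb was at 242 and 342 CPM in erythroid-like cells of iAdFASNKO and control. T-cell-like cells had 527 and 1056 CPM of it. With haemoglobin left out of the total, Junb was higher in erythroid-like than in T-cell-like cells in iAdFASNKO and lower in control. Whether Junb in T-cell-like cells stood above the reference thus depended on the total in iAdFASNKO.

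Gene positions below are those of build mm10. Within the FOS group, Fos and Fosb followed the summed level, and Fosl2 did so less closely. Fos (ENSMUSG00000021250, chr12:85473890-85477273, plus strand), the founding member of the family, was highest in mast-cell-like cells at 7830.2, 8423 and 5636 CPM in iAdFASNKO Lin+, control Lin+ and iAdFASNKO Lin-, with intervals clear of the next class. In Lin- cells Schwann-like cells came next, at 2973 CPM in iAdFASNKO and 4762 CPM in control. Fosb (ENSMUSG00000003545, chr7:19302696-19310051, minus strand), a close relative with a strong transactivation domain, was also highest there, at a lower level, with 2093 CPM in iAdFASNKO Lin+ mast-cell-like cells and 2428 CPM in the control ones. Fosl2 (ENSMUSG00000029135, chr5:32135801-32157842, plus strand), which encodes the more slowly induced and longer-lived FRA-2 protein, was highest in neutrophil-like cells among the Lin+ classes, at 368 CPM in iAdFASNKO and 589 CPM in control. In iAdFASNKO that interval overlapped the one of mast-cell-like cells, at 299 CPM. Among iAdFASNKO Lin- classes it was highest in mast-cell-like cells, at 419 CPM, with an interval overlapping that of ILC2-like cells, at 373 CPM. Control ILC2-like cells had 511 CPM of it. Lin+ B-cell-like cells had 5.04 CPM of it in iAdFASNKO and 2.47 CPM in control, the lowest Fosl2 levels of any class in those libraries. Over the 19 class and library sums with at least 50 cells, the Pearson correlation of log2(CPM + 10) with the mean of the 10 members was 0.96 for Fos, 0.96 for Fosb and 0.36 for Fosl2. These sums share libraries and depth, and the mean includes the gene itself.

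Among the JUN genes, Jun (ENSMUSG00000052684, chr4:95049034-95052222, minus strand), the strongest activator of the 3, reached 13324 CPM in iAdFASNKO and 11220.1 CPM in control Lin+ mast-cell-like cells and was the most abundant member in progenitor-like cells of all 4 libraries, at 23.5% to 27.4% of the UMIs of the 10 genes. Junb (ENSMUSG00000052837, chr8:84974484-84978718, minus strand), often a brake on Jun in cycling cells, was the most abundant member in ILC2-like, T-cell-like and neutrophil-like cells. It made up 48.8% of the UMIs of the 10 genes in iAdFASNKO and 45.4% in control ILC2-like cells, 35.6% in iAdFASNKO and 37.4% in control Lin+ T-cell-like cells, and 36.0% in iAdFASNKO and 36.2% in control neutrophil-like cells. In Lin+ B-cell-like cells its share was 19.4% in iAdFASNKO and 21.5% in control, below the 29.7% in iAdFASNKO and 30.8% in control of Jund, and in progenitor-like cells it was 9.36% to 11.2%. ILC2-like cells held 3410 CPM of Junb in iAdFASNKO and 5141 CPM in control, more than any other class of the Lin- libraries in point value, although the interval in iAdFASNKO overlapped that of mast-cell-like cells. Jund (ENSMUSG00000071076, chr8:70698949-70700616, plus strand), the member most cells transcribe steadily, spread least over the classes, from 334 to 2171 CPM over 12 classes of the iAdFASNKO Lin+ library and from 509 to 3750.3 CPM over those of the control Lin+ library.

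The 3 EGR genes had patterns of their own. Egr1 (ENSMUSG00000038418), the general growth factor response gene of the family, was at 10297 CPM in iAdFASNKO Lin+, 5441 CPM in control Lin+ and 6428 CPM in iAdFASNKO Lin- mast-cell-like cells, and between 845 and 2701 CPM in progenitor-like cells. Some immune classes held little of it, among them monocyte-like cells at 11.7 CPM in iAdFASNKO and 131 CPM in control, and ILC2-like cells at 93.3 CPM in iAdFASNKO and 29.5 CPM in control. Egr2 (ENSMUSG00000037868, chr10:67535475-67542188, plus strand), which Schwann cells need to make myelin, had its highest value in Schwann-like cells of all 4 libraries, with an interval clear of the next class in both Lin- libraries but not in the Lin+ ones. It stood there at 334 CPM in iAdFASNKO Lin+, 106 CPM in control Lin+, 380.5 CPM in iAdFASNKO Lin- and 419 CPM in control Lin-, and at 3.27 to 32.7 CPM in progenitor-like cells. Egr3 (ENSMUSG00000033730, chr14:70077203-70082614, plus strand), an antigen receptor response gene, was highest in mast-cell-like cells of iAdFASNKO Lin+, control Lin+ and iAdFASNKO Lin-. It stood there at 467, 615 and 932 CPM in that order. In each the interval was clear of the next class, which was B-cell-like in both Lin+ libraries. In iAdFASNKO Lin+ B-cell-like cells Egr3 was the EGR gene with the highest level, at 178 CPM. Egr1 had 92.1 CPM there and Egr2 5.96 CPM. In control Lin+ B-cell-like cells Egr3 had 163 CPM and Egr1 187 CPM. A UMI of Egr3 was found in 28.3% of 1291 iAdFASNKO and 21.0% of 324 control B-cell-like cells. Thinned to 1000 UMIs the shares were 13.1% and 11.6%, beside 2.56% of iAdFASNKO and 11.8% of the 17 control erythroid-like cells. In the control library this share does not tell B cells from that small reference. In CPM over all UMIs, Egr3 was lower in erythroid-like than in B-cell-like cells of both libraries, at 74.7 CPM in iAdFASNKO and 41.8 CPM in control. With haemoglobin left out of the total, the order of the point values turned round in iAdFASNKO and held in control. In iAdFASNKO the CPM therefore does not tell Egr3 in B cells from that reference either.

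Atf3 (ENSMUSG00000026628, chr1:191170296-191218039, minus strand), a stress-induced repressor that pairs with JUN proteins, broke with the other members in mast-cell-like cells. It had 1 UMI in the 22 iAdFASNKO Lin+ cells and 0 UMIs in the 16 control Lin+ and 19 iAdFASNKO Lin- cells, and a count of 0 allows up to 92.2 and 139.7 CPM there (3 counts). The same cells held more Fos, Jun and Egr1 than any other class. Atf3 was highest in macrophage-like cells of the iAdFASNKO Lin+ library, at 886 CPM, and in monocyte-like cells of the control Lin+ library, at 653 CPM, where its interval overlapped that of macrophage-like cells. In the Lin- libraries it was highest in smooth muscle or pericyte-like cells, at 652 CPM in iAdFASNKO and 707 CPM in control, with the 19 B-cell-like cells aside, in which 1 cell held all 47 of its UMIs.

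**Figure D2:**
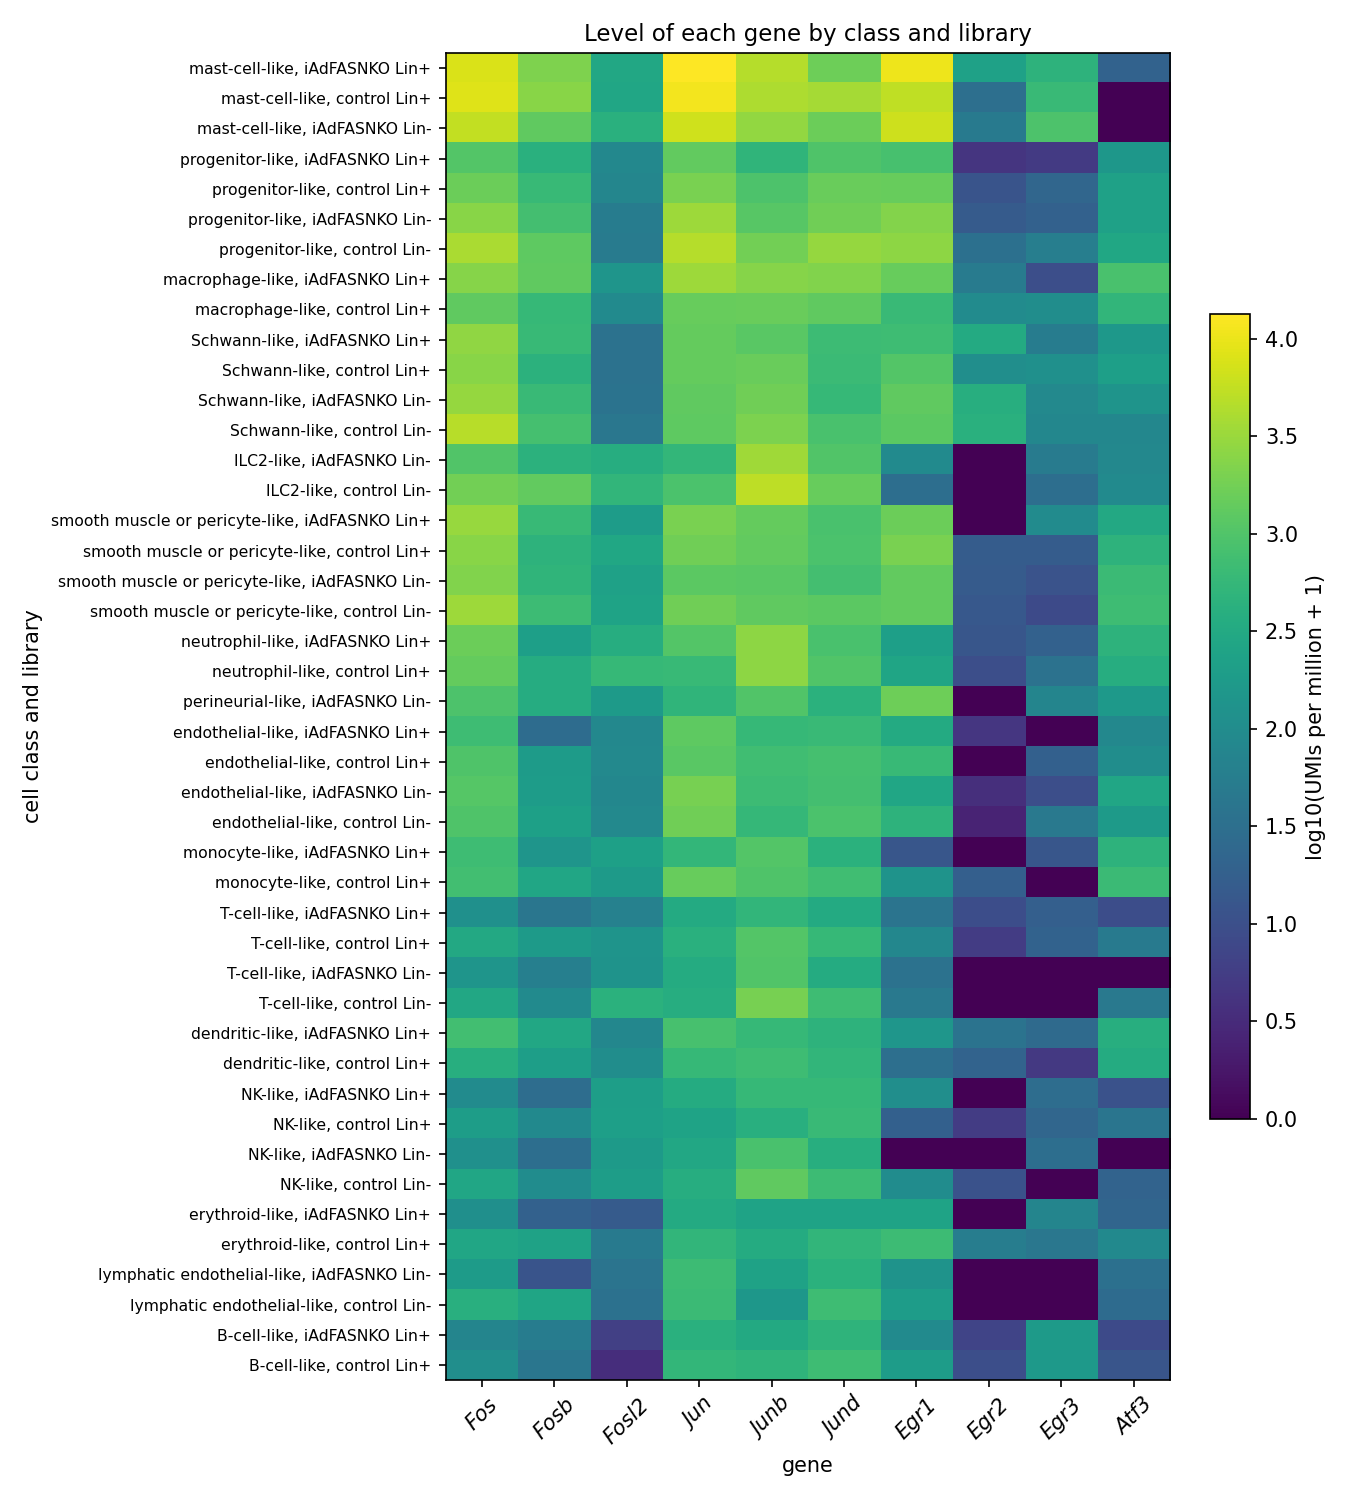
Level of each of the 10 genes (columns, log10 of CPM + 1) in each class and library with at least 15 cells (rows, classes ordered by their highest summed level). The mast-cell-like rows are bright for Fos, Jun and Egr1 and dark for Atf3, and Egr2 is brightest in the Schwann-like rows.

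Progenitor-like cells of iAdFASNKO mice held less of most members than those of control mice in both fractions. In Lin+ cells the summed level was 5361 CPM in 1427 iAdFASNKO cells, against 8393 CPM in 1610 control cells, a ratio of 0.639 (0.632 to 0.645). In Lin- cells it was 12015 CPM in 2109 iAdFASNKO cells, against 17629 CPM in 2143 control cells, a ratio of 0.682 (0.678 to 0.686). A member is counted as lower or higher below when its ratio was at most 1/1.5 or at least 1.5 and the libraries compared held at least 50 UMIs of it together. In Lin+ progenitor-like cells 7 of 10 members were lower and 0 higher, where 3.92% of all 11417 genes with as many UMIs were lower and 10% higher. In Lin- progenitor-like cells 6 of 10 were lower and 0 higher, where 7.05% of 11777 genes were lower and 7.93% higher. The median log2 ratio of all genes was 0.12 in Lin+ and 0.01 in Lin-, against -0.62 and -0.66 for the members, so the Lin+ values stand somewhat lower still against the typical gene.

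Fos was at 1041 CPM in iAdFASNKO Lin+ progenitor-like cells, against 1569 CPM in control ones, and at 2470 CPM in iAdFASNKO Lin- cells, against 3994 CPM in control ones, ratios of 0.664 and 0.618. Jun was at 1337 against 1975.5 CPM in Lin+ and 3292 against 4546 CPM in Lin-, iAdFASNKO against control, ratios of 0.677 and 0.724. Junb had ratios of 0.536 and 0.638, Jund 0.651 and 0.591, and Fosb 0.677 and 0.625. These 5 genes thus had ratios between 0.536 and 0.724, and Fosb in Lin+ and Jun in both fractions fell short of the fold. Egr1 was less alike between them, at 0.583 (0.568 to 0.597) in Lin+ and 0.849 (0.837 to 0.860) in Lin-. The largest differences were in the least abundant members. Egr3 had 43 UMIs in iAdFASNKO and 328 in control Lin+ cells, a ratio of 0.180 (0.128 to 0.247), and 235 UMIs in iAdFASNKO and 1297 in control Lin- cells, a ratio of 0.321 (0.278 to 0.369). Egr2 had ratios of 0.298 and 0.432. Fosl2 had ratios near 1, with 83.2 CPM in iAdFASNKO and 77.7 CPM in control Lin+ cells and 52.9 CPM in iAdFASNKO and 50.7 CPM in control Lin- cells, at 1.07 (0.979 to 1.17) and 1.04 (0.948 to 1.15).

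**Figure D3:**
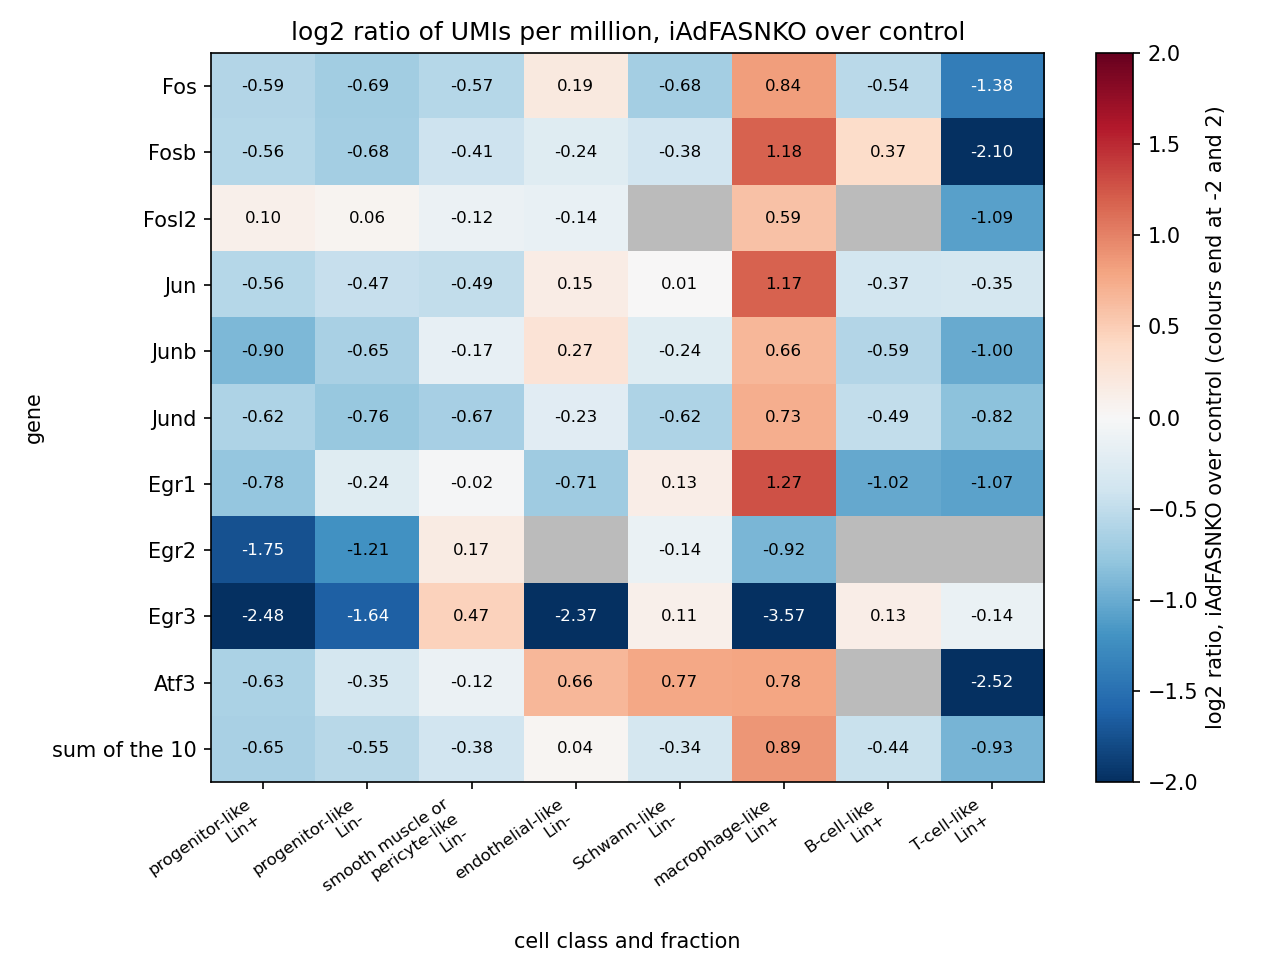
Log2 ratio of CPM, iAdFASNKO over control, for each gene (rows) in the 8 compared classes (columns); grey cells had fewer than 50 UMIs over both libraries, and the lowest row is the sum of the 10. Progenitor-like and T-cell-like columns are mostly blue (lower in iAdFASNKO), the macrophage-like column is red but for Egr2 and Egr3, and Fosl2 is near 0 in progenitor-like cells.

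Depth moved with this difference. The median progenitor-like cell had 6817 UMIs in iAdFASNKO and 8671 in control Lin+, and 5644 in iAdFASNKO and 10684 in control Lin-, with median mitochondrial shares of 1.74% in iAdFASNKO and 3.45% in control Lin+ and of 1.36% in iAdFASNKO and 3.14% in control Lin-. Among cells with 4000 to 8000 UMIs the summed level in Lin- was 12800.3 CPM in 1030 iAdFASNKO cells, against 13143 CPM in 425 control cells, a ratio of 0.974 (0.962 to 0.986). There, 2 of 10 members passed the fold, with no share of all genes at hand for these cells. At 2000 to 4000 UMIs the Lin- ratio was 0.918, and at 8000 to 16000 UMIs, which held 1341 of the 2143 control cells and 421 of the 2109 iAdFASNKO cells, it was 0.7001. At 16000 to 32000 UMIs it was 0.421 and at 1000 to 2000 UMIs 0.659. In Lin- cells the difference was therefore small at 2000 to 8000 UMIs and larger at both ends of the depth range. In Lin+ cells the ratio was 0.437, 0.524, 0.568, 0.721 and 0.743 in the 5 depth ranges from 1000 to 32000 UMIs, below 1 in each. Of the 16 marker lists of other classes, 6 had a summed level at least 1.5 times as high in iAdFASNKO as in control Lin+ progenitor-like cells and 1 a level at most 1/1.5 as high, and in Lin- cells these were 5 and 1. The list lower in both fractions was that of neutrophils, at 47.5 CPM in iAdFASNKO and 95.9 CPM in control Lin+ cells, with all 7 markers found, and at 123 CPM in iAdFASNKO and 204 CPM in control Lin- cells, with S100a9, Retnlg and Csf3r at 0 in both. Lists higher in both fractions were those of endothelial, T and NK cells. All 8 endothelial markers had UMIs in each library and summed to 20.6 CPM in iAdFASNKO and 10.1 CPM in control Lin+ cells and to 28.3 CPM in iAdFASNKO and 10.6 CPM in control Lin- cells. The 7 T cell markers summed to 19.9 CPM in iAdFASNKO and 6.01 CPM in control Lin+ cells, and the 8 NK cell markers to 10.5 CPM in iAdFASNKO and 3.62 CPM in control, all with UMIs, and in Lin- cells both lists were below 2 CPM in both genotypes. The highest of the 6 lists by level was that of the 7 B cell markers, Ebf1 among them, which all had UMIs in Lin+ cells and summed to 1119 CPM in iAdFASNKO and 715 CPM in control. In Lin- cells they summed to 874 CPM in iAdFASNKO, with all 7 found, and 640.2 CPM in control, with 5 of the 7 found. The part of depth, mitochondrial share and these markers in the result was not tested.

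**Figure D4:**
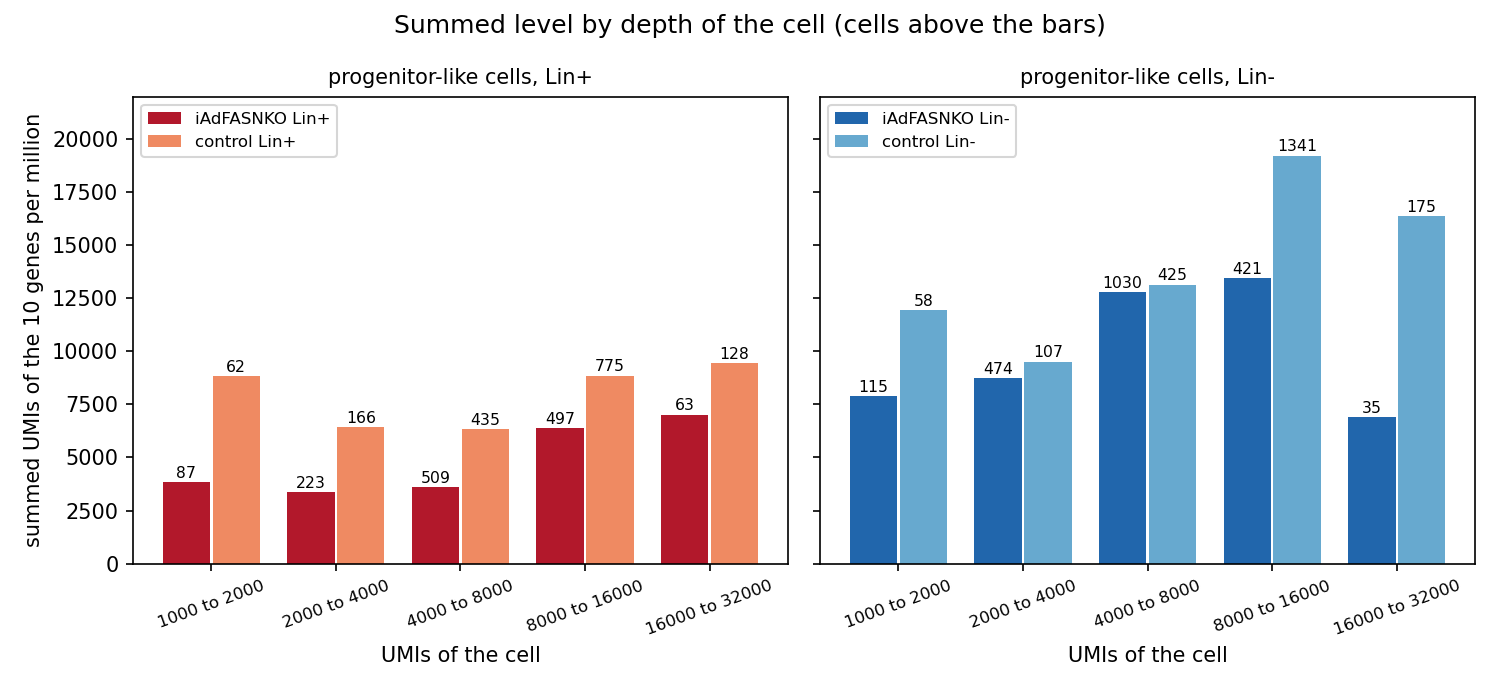
Summed CPM of the 10 genes in progenitor-like cells by the number of UMIs of the cell, for Lin+ (left) and Lin- (right); the number above a bar is its number of cells, and bars start at 0. In Lin- the bars of iAdFASNKO and control are close at 2000 to 8000 UMIs and apart above that, whereas in Lin+ the iAdFASNKO bar is lower in every range.

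Committed progenitor-like cells, which had UMIs of at least 3 of 8 markers such as Icam1 and Pparg and of more of them than of the interstitial ones, stood above interstitial cells, chosen in the same way by 8 markers such as Pi16 and Dpp4. The committed cells were at 9115 and 12625 CPM in iAdFASNKO and control Lin+ and at 13466 and 18545 CPM in iAdFASNKO and control Lin-. The interstitial cells were at 4374 CPM in iAdFASNKO and 5590.3 CPM in control Lin+, and at 4490.1 CPM in iAdFASNKO and 7320.04 CPM in control Lin-. The iAdFASNKO over control ratio was 0.722 in Lin+ and 0.726 in Lin- committed cells, and 0.782 in Lin+ and 0.613 in Lin- interstitial cells, so it was below 1 in both kinds. In Lin+ each kind was closer to 1 than the 0.639 over all progenitor-like cells. In Lin-, where that ratio was 0.682, only the committed cells were closer. Committed cells were 228 of 1427 iAdFASNKO and 535 of 1610 control Lin+ cells. The part of this mix in the result was not tested. Among committed Lin+ cells Fosl2 was the exception, at 76.2 CPM in 228 iAdFASNKO cells, against 47.3 CPM in 535 control cells, a ratio of 1.61 (1.31 to 1.98).

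The kinds of progenitor also bear on the contrast of the fractions. Lin+ progenitor-like cells had a summed level 0.446 (0.442 to 0.450) times that of Lin- ones in iAdFASNKO and 0.476 (0.473 to 0.479) times in control. Among cells with 4000 to 8000 UMIs these ratios were 0.281 in iAdFASNKO and 0.482 in control. Fosl2 was the 1 member higher in Lin+ in both genotypes, at 1.57 in iAdFASNKO and 1.53 in control. The members lower in Lin+ were 9 of 10 in iAdFASNKO, where 9.57% of 11404 genes were lower and 18.6% higher, and 8 of 10 in control, where 9.77% of 11831 genes were lower and 10.9% higher. The median log2 ratio of all genes was 0.15 in iAdFASNKO and 0.02 in control. Interstitial cells numbered 1021 among Lin+ and 164 among Lin- cells of iAdFASNKO, and 845 and 84 in control, while committed cells numbered 228 among Lin+ and 1603 among Lin- cells of iAdFASNKO, and 535 and 1897 in control. Within committed cells the Lin+ over Lin- ratio was 0.677 in iAdFASNKO and 0.681 in control. Within interstitial cells it was 0.974 (0.947 to 1.00) in iAdFASNKO and 0.764 in control. The difference between the fractions was thus smaller inside each kind than over all progenitor-like cells. Markers of other classes differed between the fractions too, with 7 of the 16 lists higher and 3 lower in Lin+ in iAdFASNKO and 6 higher and 3 lower in control. Erythroid markers summed to 2480 CPM in Lin+ and 10.1 CPM in Lin- progenitor-like cells of iAdFASNKO, monocyte markers to 321 CPM in Lin+ and 115 CPM in Lin-, and smooth muscle or pericyte markers to 59.5 CPM in Lin+ and 223 CPM in Lin-. Their part in the result was not tested. The sort, the mix of kinds and 1 library per fraction cannot be told apart.

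Macrophage-like cells were the class in which the members were mostly higher in iAdFASNKO. The sum was 14094 CPM in 61 iAdFASNKO cells, against 7611 CPM in 126 control cells, a ratio of 1.85 (1.78 to 1.93). There, 8 of 10 members were higher and 2 lower, where 5.5% of 3254 genes were higher and 14.8% lower, and the median log2 ratio was 0.75 for the members, against -0.12 for all genes. The class was also split by a UMI of Lyve1 or Cd209f, markers of perivascular macrophages, which leaves fewer than the 50 iAdFASNKO cells asked of a comparison, so the values of each kind are descriptions. The cells with such a UMI were at 17584 CPM in 35 iAdFASNKO cells, against 7625 CPM in 64 control cells, a ratio of 2.31 (2.19 to 2.42). The cells without such a UMI were at 7898 CPM in 26 iAdFASNKO cells, against 7595 CPM in 62 control cells, a ratio of 1.04 (0.964 to 1.12). Jun had ratios of 3.01 (2.71 to 3.35) with and 0.844 (0.696 to 1.02) without such a UMI, Fos 2.59 and 0.891, and Atf3 2.81 and 0.847, whereas Egr1, at 2.33 and 1.77, and Fosb, at 2.50 and 1.59, had ratios above 1.5 in both. Fosl2 was at 1.08 (0.537 to 2.10) with and 2.16 (1.303 to 3.55) without.

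The 2 lower members in macrophage-like cells were Egr2 and Egr3, and both rested on few cells. Egr2 had 17 UMIs in 6 iAdFASNKO cells, 12 of them in 1 cell, against 66 UMIs in 19 control cells. Egr3 had 3 UMIs in 2 iAdFASNKO cells, against 73 in 11 control cells. Of the 16 marker lists of other classes, 6 were higher and 3 lower in iAdFASNKO macrophage-like cells by the same fold. Of the 7 neutrophil markers all but G0s2 had UMIs in iAdFASNKO and all 7 in control, and they summed to 11962 CPM in iAdFASNKO, against 2553 CPM in control. Of the 7 T cell markers all had UMIs in iAdFASNKO and 4 in control, with Trac, Trbc2 and Lck at 0 there, and they summed to 140.2 CPM in iAdFASNKO and 21.8 CPM in control. Of the 7 mast cell markers 3 had UMIs in iAdFASNKO and 5 in control, and they summed to 29.8 CPM in iAdFASNKO and 187 CPM in control, with Kit and Ms4a2 at 0 in both. The 9 progenitor markers, all with UMIs, summed to 158 CPM in iAdFASNKO and 422 CPM in control, and the 5 erythroid markers, all with UMIs, to 4760 CPM in iAdFASNKO and 2183 CPM in control. The 7 plasma cell markers, with Mzb1 and Derl3 at 0 in iAdFASNKO, summed to 229.6 CPM in iAdFASNKO and 850.5 CPM in control. Neutrophil-like cells themselves had 7393 CPM of the members in iAdFASNKO, below the macrophage-like cells of the same library. The part of these markers in the result was not tested.

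T-cell-like cells had the lowest genotype ratio of the summed level, 0.524 (0.4998 to 0.550), in 664 iAdFASNKO and 202 control Lin+ cells. There, 7 of 9 members with enough UMIs were lower and 0 higher, where 10.8% of 7201 genes were lower and 6.44% higher. Not all of the 7 stood above the level in erythroid-like cells, the rough reference for free RNA given above. Fos was at 116.1 CPM in iAdFASNKO and 301.9 CPM in control T-cell-like cells, beside 113.8 CPM in iAdFASNKO and 271.9 CPM in control erythroid-like cells, with overlapping intervals. Egr1 was below the erythroid-like level in both libraries. That reference therefore does not tell these 2 ratios from free RNA. Junb, the leading member in T cells, was at 527 CPM in iAdFASNKO, against 1056 CPM in control, a ratio of 0.499 (0.462 to 0.541). Fosl2 was at 63.7 CPM in iAdFASNKO, against 135.7 CPM in control. Erythroid-like cells had 14.2 and 48.8 CPM of it, and no UMI of it when thinned to 1000 UMIs. Jund was at 334 CPM in iAdFASNKO, against 587.5 CPM in control. Erythroid-like cells had 242 and 523 CPM of Jund, with overlapping intervals in control. With haemoglobin left out of the total, Jund in T-cell-like cells was below erythroid-like cells in both libraries, and Junb was below them in iAdFASNKO. On that total the reference does not tell the Jund and Junb ratios from free RNA either. Jun differed least of the abundant members, at 326 CPM in iAdFASNKO, against 415 CPM in control, a ratio of 0.786. Fosb, at 0.233, and Atf3, at 0.175, had the lowest ratios on few UMIs, 29 of Atf3 in iAdFASNKO and 45 in control with 17 of the 45 in 1 cell, and both had lower CPM than erythroid-like cells in the control library. The sum was lower in cells with Cd4 UMIs, at 0.593 (0.540 to 0.652), and in those with Cd8a or Cd8b1 UMIs, at 0.489 (0.453 to 0.529). Median depth was 4137 UMIs in iAdFASNKO and 3463 in control. Of the 16 marker lists of other classes, 3 were higher and 4 lower in iAdFASNKO by the same fold. Among the higher, the 7 B cell markers summed to 89.3 CPM in iAdFASNKO and 19.5 CPM in control, with 5 of the 7 found there. The 5 erythroid markers summed to 4608 and 3029 CPM. Among the lower, the 9 progenitor markers, all with UMIs, summed to 85.5 CPM in iAdFASNKO and 235 CPM in control. The 8 NK cell markers, all with UMIs, were short of the fold, at 576 CPM in iAdFASNKO and 856 CPM in control. At 4000 to 8000 UMIs the log2 ratio of Egr1 turned to 0.019. The part of these markers and of depth in the result was not tested.

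B-cell-like cells had a ratio of 0.737 (0.7002 to 0.777) over 1291 iAdFASNKO and 324 control Lin+ cells. Of 7 members with enough UMIs, 2 were lower and 0 higher, where 5.73% of 7447 genes were lower and 7.05% higher. They were Egr1, whose level was below that of erythroid-like cells and whose log2 ratio turned to 0.93 at 4000 to 8000 UMIs, and Junb, at 318 CPM in iAdFASNKO and 478 CPM in control. With haemoglobin left out of the total, Junb too was below erythroid-like cells in point value in both libraries. Junb only just passed the fold, at a ratio of 0.666, and the count fell to 1 with doublets kept, with 70% of the markers required, centred on the median gene, with mitochondrial, haemoglobin and ribosomal genes left out of the total, as a mean over cells or without the top cell of each library. The 9 progenitor markers, all with UMIs, summed to 125 CPM in iAdFASNKO and 176 CPM in control, and their part in the result was not tested. Egr3 was at 178 CPM in iAdFASNKO and 163 CPM in control, a ratio of 1.09 (0.909 to 1.33), with the erythroid-like values given above beside it. Among the 167 iAdFASNKO and 21 control B-cell-like cells with 4000 to 8000 UMIs the summed ratio was 0.995.

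In the stromal classes of the Lin- libraries the differences were smaller. Smooth muscle or pericyte-like cells had a summed ratio of 0.771 (0.759 to 0.783) over 969 iAdFASNKO and 328 control cells. There, 1 of 10 members was lower, Jund at 780 CPM in iAdFASNKO and 1236 CPM in control, and 0 were higher, where 9.56% of 8918 genes were lower and 2.7% higher. Fos had a ratio of 0.673, just short of the fold, and Egr1 one of 0.986 (0.946 to 1.03). The median cell had 4311 UMIs in iAdFASNKO and 7833 in control, and the summed ratio was 0.831 among cells of 4000 to 8000 UMIs and 0.434 among those of 8000 to 16000. Schwann-like cells had a summed ratio of 0.788 (0.749 to 0.829) over 196 iAdFASNKO and 81 control cells. Of 9 members, 2 were lower and 1 higher, where 9.56% of 2092 genes were lower and 7.36% higher. The lower ones were Fos, at 2973 CPM in iAdFASNKO and 4762 CPM in control, and Jund, and the higher one was Atf3, with 49 UMIs in iAdFASNKO and 19 in control, a ratio of 1.70 (0.984 to 3.06). Egr2 was at 380.5 CPM in iAdFASNKO, against 419 CPM in control, a ratio of 0.908 (0.698 to 1.19), so a difference was not detectable at this depth. The median Schwann-like cell had 1560.5 UMIs in iAdFASNKO and 2816 in control. The part of depth in these results was not tested.

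Endothelial-like cells had nearly the same sum in both Lin- libraries, 5256 CPM in 178 iAdFASNKO cells and 5104 CPM in 101 control cells, a ratio of 1.03 (0.994 to 1.07). The members did not move together. Of 9, 1 was higher and 2 lower, where 6.3% of 6160 genes were higher and 10.2% lower. Atf3 was at 275 CPM in iAdFASNKO, against 173 CPM in control, a ratio of 1.58 (1.33 to 1.89), and Egr1 at 277 CPM in iAdFASNKO, against 455 CPM in control, a ratio of 0.609 (0.529 to 0.7003). With at least 1000 genes and at most 5% mitochondrial UMIs per cell the log2 ratio of Egr1 turned to 0.12, and among cells of 4000 to 8000 UMIs 0 members passed the fold. Egr3 had 10 UMIs in iAdFASNKO and 57 in control, 46 of which lay in 1 cell. That control library also held 1 cell with 18.9% of all UMIs of the 10 genes, and without the top cell of each library the summed ratio was 1.18. Without the barcodes shared between libraries it was 1.31. The median cell had 4090.0 UMIs in iAdFASNKO and 8339 in control, and the part of depth in the result was not tested.

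Single cells of a class differed widely. The 10 genes made up a median of 1.99 UMIs per 1000 in iAdFASNKO and 4.43 in control Lin+ progenitor-like cells, and 8.66 in iAdFASNKO and 16.0 in control Lin- ones. The cell at the 10th percentile had 0.597 per 1000 and the one at the 90th 27.02 in iAdFASNKO Lin-, against 1.28 and 33.4 in control Lin-. In Lin+ progenitor-like cells the top 10% of cells held 54.8% of the UMIs of the 10 genes in iAdFASNKO and 41.4% in control, so the Lin+ level came from a minority of cells more than the Lin- level, where the shares were 33.6% in iAdFASNKO and 27.1% in control. In mast-cell-like cells even the 10th percentile was high, at 19.0 per 1000 in iAdFASNKO and 16.7 in control Lin+. Macrophage-like cells had a median of 13.9 in iAdFASNKO, against 5.60 in control, and no single cell held more than 5.95% of the UMIs. Medians were 1.15 in iAdFASNKO and 2.26 in control Lin+ T-cell-like cells.

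**Figure D5:**
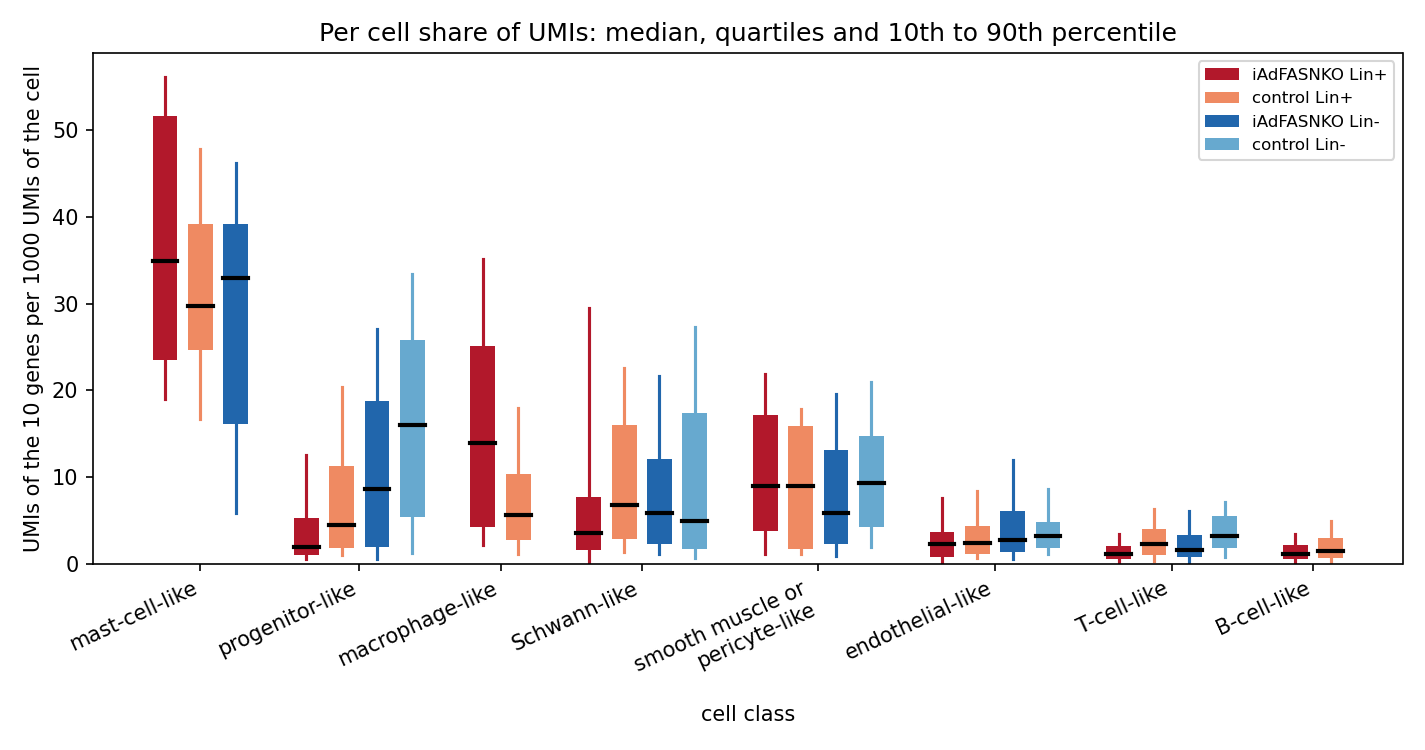
UMIs of the 10 genes per 1000 UMIs of a cell, by class and library; black bars are medians, boxes the middle 50% of cells and lines the 10th to 90th percentiles, with the 19 B-cell-like Lin- cells left out. The 4 progenitor-like boxes climb from a median of 1.99 in iAdFASNKO Lin+ to 16.0 in control Lin-, and the macrophage-like box is higher in iAdFASNKO (13.9) than in control (5.60).

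Members were found in the same single cells to differing degrees. With each progenitor-like cell thinned to 2000 UMIs, the correlation of Fos with Jun over cells was 0.68 in iAdFASNKO Lin+, 0.62 in control Lin+, 0.69 in iAdFASNKO Lin- and 0.66 in control Lin-. Fosl2 had correlations of at most 0.15 with any other member in these libraries. Fos and Junb went together most closely in Schwann-like cells of the control Lin- library, at 0.83 over 64 cells. In T-cell-like cells no pair exceeded 0.29 in iAdFASNKO and 0.36 in control. These are descriptions of sparse counts from cells that share a library.

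Other genes of the same response differed the same way between the genotypes in some classes and not in others. Of 20 further immediate early genes, 19 had enough UMIs in progenitor-like cells. In Lin+ 10 were lower and 0 higher in iAdFASNKO, and in Lin- also 10 and 0, with medians of -0.60 and -0.77 on the log2 scale. Arc, known as a synaptic activity gene, had the lowest ratio in both, 0.209 in Lin+ and 0.342 in Lin-, while Klf6, a zinc finger factor, had the highest, 1.04 and 0.976. In macrophage-like cells 6 of 14 were higher and 0 lower, led by Klf4 at 2.87 and the antiproliferative gene Btg2 at 1.97. In T-cell-like cells 9 of 16 were lower and 0 higher, with the nuclear receptor gene Nr4a2 lowest at 0.271. In endothelial-like cells 5 of 16 were higher and 3 lower, with a median log2 ratio of 0.38, against -0.14 for the members. Between the fractions the list was also mixed, with 4 higher and 6 lower of 19 in Lin+ progenitor-like cells of iAdFASNKO, a median of -0.08 against -1.22 for the members, and 3 higher and 6 lower in control. In iAdFASNKO the higher count was near the general share, as 18.6% of all genes were higher and 9.57% lower. The shares of all genes given above for each comparison also hold for these lists and those of the next paragraph.

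Genes of the machinery around the members differed less. Of 18 upstream kinases, factors and corepressors, 0 were higher or lower in Lin+ progenitor-like cells and 1 each way in Lin-, where Map2k7, a kinase of the JNK pathway, was at 1.56 and Srf, the serum response factor, at 0.660. Crem, a CREB family gene, was the lowest of that list in T-cell-like cells at 0.257. Of 15 AP-1 dimer partners, 3 of 13 with enough UMIs were lower and 1 higher in Lin+ progenitor-like cells, and 2 lower and 1 higher in Lin-. Fosl1, the remaining FOS gene, had the lowest ratios of that list, 0.283 in Lin+ and 0.337 in Lin-. Of 10 heat shock genes, which report protein damage rather than growth signals, 5 were lower in Lin+ and 4 in Lin- progenitor-like cells and 0 higher in either, with Hspb1 the lowest at 0.469 and 0.573. In macrophage-like cells 1 of 9 heat shock genes was higher and 1 lower, with a median log2 ratio of -0.04. These lists share their control libraries with the members and are no independent count.

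The 10 genes outside the members whose log2(CPM + 10) correlated best with the mean of the members over the 19 class and library sums, among 6949 genes, were Rtn4 (0.89), Rnd3 (0.87), Mt1 (0.85), Zfp703, S100a1, Plxnb2, Prdx4, Anxa5, Cstb and Spred1 (0.82). The members' own values in that measure ran from 0.96 for Fos to 0.01 for Egr3.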

How the data were processed

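Single-cell RNA sequencing (10x 3' v3) was measured in 4 libraries, 1 per genotype and sorted fraction. The authors deposited raw UMI counts per gene and barcode for each genotype, and the submitters' processing notes name Cell Ranger 3.1.0, Seurat 3.0 and build mm10. The barcode filter is not given in the sources used here. Genotype was read from the name of the matrix and fraction from the barcode tag given in the labels. Each molecule is counted from 1 end, so levels of different genes are compared without a length correction.

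Barcodes were kept from 300 genes and 500 UMIs upward with mitochondrial UMIs no higher than 10%, which left 2888 to 4425 cells per library, and doublets called by Scrublet (scanpy 1.11.5, expected rate 0.06) were removed. A cell joined a class when it had UMIs of at least 50% of the class's markers (3 of 9 for dendritic-like cells), 10 percentage points more than for any other class, and the erythroid-like class took cells with at least 25% haemoglobin UMIs. These gate limits were set after marker detection had been seen. UMIs were summed per class and library and divided by all UMIs of those cells (CPM), with exact Poisson intervals for levels, exact conditional binomial intervals for ratios and Clopper-Pearson intervals for shares, all at 95%. Levels need at least 15 cells, and comparisons at least 50 cells in both libraries, at least 50 UMIs and a fold of 1.5. The scripts were tested on simulated data.

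All 10 members were named, with up to 2 genes at each end of every other list in a compared class and the 10 genes most like the members by correlation (mean of at least 20 CPM). Members and lists were chosen with earlier results of these data known. One marker gene of a list is not reported here by name. Alternatives covered the cell filter, doublets, the gate, scaling, per-cell averaging, single top cells, shared barcodes, depth, the UMI minimum and the fold. Versions were Python 3.11.15, numpy 2.4.6, pandas 2.3.3, scipy 1.17.1 and matplotlib 3.10.9.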

Additional observations from a re-analysis of the deposited data

Results flagged for a closer look

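The iAdFASNKO over control ratio was above 1.5 in Lin+ macrophage-like cells and below 1/1.5 in another class of the same 2 libraries for the sum of the members and for 7 of them. With 1 library per genotype the difference between classes was not tested. The sum of the members was at 1.85 in macrophage-like cells, 0.639 in progenitor-like cells and 0.524 in T-cell-like cells. Fos was at 1.79, with 0.664 in progenitor-like and 0.385 in T-cell-like cells. Fos in T-cell-like cells did not stand above its level in erythroid-like cells. Fosb was at 2.27, with 0.233 in T-cell-like cells, and Fosl2 at 1.51, with 0.469 there. Junb was at 1.58, with 0.536 in progenitor-like, 0.666 in B-cell-like and 0.499 in T-cell-like cells. Jund was at 1.65, with 0.651 in progenitor-like and 0.568 in T-cell-like cells. With haemoglobin left out of the total, Jund in T-cell-like cells was below erythroid-like cells in both libraries, and Junb was below them in iAdFASNKO. Egr1 was at 2.41, with 0.583 in progenitor-like, 0.492 in B-cell-like and 0.476 in T-cell-like cells. In both lymphoid classes Egr1 was below its level in erythroid-like cells, and at 4000 to 8000 UMIs its log2 ratio turned to 0.93 in B-cell-like and 0.019 in T-cell-like cells. Atf3 was at 1.72, with 0.647 in progenitor-like and 0.175 in T-cell-like cells.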

How the results depend on the processing

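No paired analysis was possible because each genotype and fraction had 1 library and no comparison came from a test. Summed ratios of the members are given in the order Lin+ progenitor-like, Lin- progenitor-like, then the Lin+ over Lin- ratio in iAdFASNKO and in control, and counts are of members past the fold. The share of all genes past the fold is given for the main run only. Counts of alternative runs, here and above, therefore cannot be set against the general rate. The restrictions to unshared barcodes and to 4000 to 8000 UMIs were chosen after seeing the data, as were the macrophage and progenitor splits. The cause of a moved value was not tested. With up to 20% mitochondrial UMIs the sum was 0.647 in Lin+ progenitor-like and 1.74 in macrophage-like cells, and the counts were 0 in smooth muscle or pericyte-like and 4 in B-cell-like cells. With at least 1000 genes and at most 5% mitochondrial UMIs, the sums were 0.621, 0.659, 0.456 and 0.484, then 0.752 in smooth muscle or pericyte-like (count 3), 1.52 in endothelial-like, 0.706 in Schwann-like and 2.28 in macrophage-like cells, and Egr1 turned to a log2 ratio of 0.12 in endothelial-like cells. Keeping doublets gave a B-cell-like count of 1. With 70% of the markers required, the sums were 0.653, 0.690 and 0.451 (the last for iAdFASNKO Lin+ over Lin-), 0.747 in smooth muscle or pericyte-like (count 2), 1.08 in endothelial-like and 2.34 in macrophage-like cells, and the B-cell-like count was 1. Without shared barcodes the sums were 0.692 in Lin- progenitor-like cells, 0.437 and 0.470 for Lin+ over Lin- and 1.31 in endothelial-like cells. At 4000 to 8000 UMIs the sums were 0.568, 0.974 (count 2), 0.281 and 0.482, then 0.831 in smooth muscle or pericyte-like, 0.971 in endothelial-like (count 0), 1.69 in macrophage-like (count 6), 0.995 in B-cell-like and 0.615 in T-cell-like cells. There Egr3 turned to a log2 ratio of 0.61 in endothelial-like cells, and Egr1 to 0.93 in B-cell-like and 0.019 in T-cell-like cells. Centred on the median gene, the sums were 0.589, 0.676, 0.401 and 0.468, then 0.823 in smooth muscle or pericyte-like (count 0), 1.07 in endothelial-like and 2.01 in macrophage-like cells, and the B-cell-like count was 1. With mitochondrial, haemoglobin and ribosomal genes left out of the total, the sums were 0.619 and 0.677 in progenitor-like cells, 0.486 for control Lin+ over Lin-, 0.757 in smooth muscle or pericyte-like (count 2) and 0.563 in T-cell-like cells, and the B-cell-like count was 1. As a mean over cells, the sums were 0.596 in Lin+ progenitor-like cells, 0.401 and 0.462 for Lin+ over Lin-, 0.802 in smooth muscle or pericyte-like and 2.01 in macrophage-like cells, and the counts were 1 in Schwann-like and 1 in B-cell-like cells. Without the top cell of each library the sums were 0.442 for iAdFASNKO Lin+ over Lin- and 1.18 in endothelial-like cells, and the B-cell-like count was 1. A minimum of 20 UMIs or of 1 UMI gave a B-cell-like count of 4. At a fold of 2 the counts were 2 and 2 in progenitor-like cells, 6 and 5 for Lin+ over Lin-, 0 in smooth muscle or pericyte-like, 1 in endothelial-like, 0 in Schwann-like, 4 in macrophage-like and 1 in B-cell-like cells. The endothelial sum thus ranged from 0.971 to 1.52, while in progenitor-like cells it was below 1 and in macrophage-like cells above 1 in every alternative run. Of the single member ratios, 56 moved and 24 did not at 4000 to 8000 UMIs, and 41 moved and 49 did not under the stricter filter. Under that filter the doublet caller marked 5 to 9 cells per library.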
